A study of Mus musculus with 4 samples.

Results

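The 9 genes described here encode enzymes that take farnesyl diphosphate through squalene and lanosterol to cholesterol. They are Fdft1, Sqle, Lss, Cyp51, Msmo1, Nsdhl, Hsd17b7, Sc5d and Dhcr7. They were chosen by gene symbol and place in the pathway, not by their values, as all probe sets that the array annotation assigns to them, which gave 18 of the 22626 probe sets that are not controls and 9 of the 12393 genes that have a probe set of their own. Each gene was followed through its brightest probe set, and 14 of the 18 probe sets were above the floor of 16 units on at least 1 array. Units are GCRMA intensities on a linear scale, and values under the floor were set to it before any difference was taken.

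Liver RNA came from male mice aged 12 to 20 weeks per the labels, all of 129 substrains and on chow. The 4 groups were fed wild-type (129S1/SvImJ), fed PPARα-null (129S4/SvJae), wild-type fasted for 24 hours and PPARα-null fasted for 24 hours. The RNA of 5 mice per group was pooled on 1 array, so no difference has a replicate check, no error can be given and no p-value was computed, and pooling hides the spread between mice. The null mice lack the nuclear receptor PPARα throughout the body and come from another substrain, so genotype and substrain cannot be told apart. A gene was called when 2 arrays differed by at least 1.5-fold, the threshold that the study set for pooled arrays, and a fall or a rise means a called difference between the fed and the fasted pool of a genotype.

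Cholesterol is built from acetyl-CoA in the liver as in most tissues, and the second part of that path, after squalene has been formed, lies in the endoplasmic reticulum. Fdft1 (squalene synthase) joins farnesyl diphosphate into squalene, Sqle (squalene epoxidase) adds oxygen to it, and Lss (lanosterol synthase) folds the product into the first sterol. Cyp51, Msmo1, Nsdhl and Hsd17b7 then remove the methyl groups that lanosterol carries in excess of cholesterol, and Sc5d and Dhcr7 set and reduce the double bonds of the ring system. Genes of this path are known targets of SREBP-2, a transcription factor that is released to the nucleus when membrane sterol runs low.

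The arrays were alike in range, with medians between 14.4 and 14.6 units and between 23.0% and 23.7% of probe sets at 64 units or more. Hepatocyte markers such as Alb and Apoa1 were bright on every array, and 7 of 7 measured markers were within 1.5-fold between the fed pools. Ppara read 583 and 755 units in the fed and fasted wild-type pools and 104 and 16.3 units in the fed and fasted null pools, lower in both null pools as the labels would have it. Of the cholangiocyte markers, Krt7, Krt19, Epcam and Cftr were below the floor on all arrays, while Sox9 read 23.6 and 20.8 units in fed and fasted wild-type and 20.7 and 33.9 units in fed and fasted null liver. Most lymphocyte markers were below the floor on all arrays. Ptprc read 31.1 and 23.9 units in fed and fasted wild-type and 38.0 and 21.0 units in fed and fasted null liver.

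Nearly the whole set was lower in wild-type liver after fasting. Of the 9 genes, 8 were called lower in the fasted wild-type pool than in the fed one and 0 were called higher, against 8.29% of all 6947 measured genes that were lower and 8.20% that were higher. The median log2 difference of the 9 genes was -2.80, beside 0 for all measured genes. The 8 genes kept between 3.75% and 30.0% of their fed level, and they took places between the 3rd and the 72nd when all measured genes were ordered from the largest fall. The same 8 genes were lower in the null pool after fasting, where the background was 18.0% lower and 12.4% higher, but the median of the 9 genes was -1.74 and the 8 kept between 17.5% and 48.2%. In bulk liver, fewer cells of a type and less RNA per cell cannot be told apart. Of 7 measured hepatocyte markers 0 were called after fasting in wild-type liver, with a median of 0.24, while 5 of 9 measured Kupffer cell and macrophage markers were lower there, with a median of -0.68. In null liver 3 of these 9 markers were higher after fasting and 0 lower, with a median of 0.36, and 1 of the 7 hepatocyte markers (Tat) was higher. The part of these markers in the fasting differences was not tested.

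**Figure D1:**
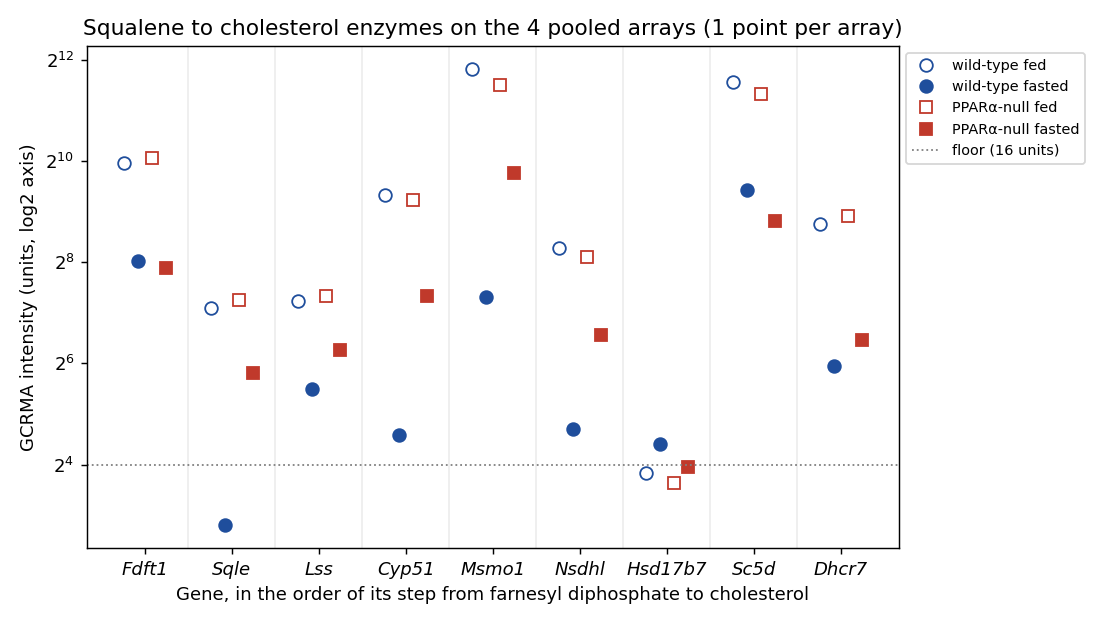
GCRMA intensity (log2 axis) of the brightest probe set of each gene, in pathway order. Each symbol is 1 pool: wild-type pools are circles and PPARα-null pools squares, and fed pools are open and fasted pools filled. Open points lie close together for every gene, filled points lie below them for 8 genes, and the filled circle is far below the filled square for Sqle, Cyp51, Msmo1 and Nsdhl. A dotted line marks the 16-unit floor.

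Because most of the set moved together on fasting, the promoters were searched for short motifs. RefSeq promoters (GRCm38.p6, from 250 bases before to 50 after each start) were available for 7 of the 9 genes, with 3 starts for Dhcr7, and those of Fdft1 and Sqle were not in the table used here. The motifs, matched exactly on both strands, were the NF-Y box CCAAT, the Sp1 box GGGCGG, the E-box CACGTG, the sterol response element core TCACNCCAC with the shorter variant CACCCCAC, and a direct repeat of AGGTCA with 1 base between. NF-Y and Sp1 are known to act beside SREBP at sterol-regulated promoters. CCAAT was present for 7 of 7 genes, and in 7 of their 9 starts, against 37.4% of 32851 promoters, and 4 genes (Msmo1, Nsdhl, Hsd17b7 and Dhcr7) had more than 1 in a promoter, as did 11.7% of promoters. GGGCGG was present for 7 of 7 genes, and in 8 of their 9 starts, against 35.7% of promoters. CACGTG was found for 3 genes (Hsd17b7, Sc5d and Dhcr7), and in 3 of the 9 starts, against 7.15% of promoters. The sterol response element core matched 0 of 9 starts against 1.24%, the shorter variant 0 against 2.87%, and the direct repeat 0 against 0.0396%. At shares this low, 0 matches in 9 starts cannot set these promoters apart from others. An exact match also misses variants of a motif, so these counts do not show that such elements are absent. TCACNCCAC and CACCCCAC can overlap. These counts describe letters in a window and nothing about binding.

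The 150 bases before the start are shown for Cyp51, Msmo1 and Nsdhl, the genes above the floor on all arrays with the largest gap between the fasted pools, and for Sc5d, which was lower in the fasted null pool. They lie at chr5:4104698-4104847 on the minus strand (Cyp51), chr8:64733579-64733728 on the minus strand (Msmo1), chrX:72918371-72918520 on the plus strand (Nsdhl) and chr9:42264301-42264450 on the minus strand (Sc5d), each ending at the base before the annotated start. Capitals mark CCAAT or its reverse complement, and sequences run 5′ to 3′ along the gene's strand.
Cyp51: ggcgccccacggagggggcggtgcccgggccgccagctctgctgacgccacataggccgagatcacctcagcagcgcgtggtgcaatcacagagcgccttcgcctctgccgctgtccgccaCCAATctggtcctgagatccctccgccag
Msmo1: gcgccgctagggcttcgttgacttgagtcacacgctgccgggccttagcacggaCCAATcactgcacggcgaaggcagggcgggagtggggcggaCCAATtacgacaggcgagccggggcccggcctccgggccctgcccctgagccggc
Nsdhl: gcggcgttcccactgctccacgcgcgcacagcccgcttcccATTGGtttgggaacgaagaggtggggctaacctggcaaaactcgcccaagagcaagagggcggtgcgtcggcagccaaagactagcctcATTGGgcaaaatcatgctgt
Sc5d: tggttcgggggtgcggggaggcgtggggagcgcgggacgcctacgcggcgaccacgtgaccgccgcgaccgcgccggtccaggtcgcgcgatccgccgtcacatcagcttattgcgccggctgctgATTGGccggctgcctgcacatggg
The box lies 29 bases before the start in Cyp51 and 24 bases before it in Sc5d, counted to its first base, and there are 2 boxes in these windows for Msmo1 and 2 for Nsdhl. Each window shown held a CCAAT box, as did 7 of 7 genes searched, so genes with and without the box could not be compared.

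The steps that make lanosterol were lower to different degrees. Fdft1 read 993 units in fed and 262 units in fasted wild-type liver, and 1074 and 236 units in fed and fasted null liver. It was thus 3.79-fold lower after fasting in wild-type and 4.54-fold lower in null liver, and the fasted pools were close to each other, with a log2 difference of -0.15. A second probe set of Fdft1 read 518 and 188 units in wild-type and 644 and 214 units in null liver, which puts the fasted null pool slightly above the wild-type pool, at 0.19. The remaining 2 probe sets were below the floor on all arrays.

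Sqle, often counted among the rate-limiting enzymes of the path, has 1 probe set here. It read 138 units in fed wild-type, 6.95 units in fasted wild-type, 152 units in fed null and 56.0 units in fasted null liver. The fasted wild-type pool alone was below the floor, so the fall in wild-type liver was at least 8.59-fold, while it was 2.71-fold in null liver. Sqle was therefore at least 3.50-fold higher in the fasted null than in the fasted wild-type pool.

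Lss read 149 and 44.8 units in fed and fasted wild-type liver and 160 and 77.4 units in fed and fasted null liver. The fasted pools of both genotypes were below both fed pools, by 3.33-fold in wild-type and 2.07-fold in null liver, and the fasted null pool was 1.73-fold above the fasted wild-type pool. A dimmer probe set of Lss read 35.3, 15.8, 43.6 and 17.9 units in the same order and gave a log2 difference of only 0.16 between the fasted pools, so the Lss difference between genotypes depends on the probe set. The remaining probe set was below the floor on all arrays.

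The enzymes that demethylate lanosterol showed the widest range. Cyp51, the cytochrome P450 that removes the first methyl group, read 644 units in fed wild-type and 24.1 units in fasted wild-type liver, a 26.7-fold fall that placed it 3rd among all measured genes. In null liver it read 597 units fed and 162 units fasted, a 3.69-fold fall. The fasted null pool was 6.71-fold above the fasted wild-type pool, while the fed pools differed by -0.11 on the log2 scale. The fasted wild-type value is dim, and the log2 difference between the fasted pools went from 2.75 to 1.34 with a floor at 64 units and to 1.15 with the mean of all probe sets.

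Another probe set of Cyp51 read 180 and 27.0 units in wild-type and 154 and 38.4 units in null liver. It showed the same order of the 4 pools, with log2 changes of -2.73 and -2.01 on fasting, but its difference between the fasted pools, 0.51, stayed under the threshold. The remaining one was below the floor on all arrays. The direction for Cyp51 is thus shared by the probe sets that detected it, and the size is not.

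Msmo1 oxidizes the remaining methyl groups of the first ring, and Nsdhl, Hsd17b7 and the scaffold protein Erg28 complete their removal. Msmo1 read 3628 units in fed and 160 units in fasted wild-type liver, a 22.7-fold fall. In null liver it read 2902 units fed and 870 units fasted, a 3.34-fold fall. The fasted null pool was 5.44-fold above the fasted wild-type pool and still well below both fed pools. Its 1 probe set carries a suffix that marks a match to several transcripts of the same gene, while the suffixes of the brightest probe sets of Fdft1 and Lss mark possible matches to other genes.

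Nsdhl read 312 and 26.1 units in fed and fasted wild-type liver and 275 and 94.6 units in fed and fasted null liver. The fall was 12.0-fold in wild-type and 2.90-fold in null liver, which left the fasted null pool 3.63-fold above the fasted wild-type pool. Hsd17b7, the sterol ketone reductase, was hardly detected. Its brighter probe set read 14.2 and 21.1 units in fed and fasted wild-type and 12.4 and 15.5 units in fed and fasted null liver, so only the fasted wild-type pool was above the floor and the gene gives no usable fasting response. Its other probe set had the same order of above and below the floor, with 18.1 units in fasted wild-type liver.

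The last steps, like the first one, had falls of similar size in both genotypes. Sc5d, which introduces a double bond into the sterol ring, read 3046 and 693 units in fed and fasted wild-type liver and 2575 and 451 units in fed and fasted null liver. It was 4.39-fold lower after fasting in wild-type and 5.70-fold lower in null liver. The fasted null pool was the lowest of the 4, at a log2 difference of -0.62 from the fasted wild-type pool. This is the 1 gene of the set called lower there, and it fell short of the threshold with quantile normalization (-0.50) and with centring on bright probe sets (-0.47). A second probe set of Sc5d was dim, at 17.3 and 9.97 units in fed and fasted wild-type and 15.7 and 9.42 units in fed and fasted null liver, and shows no usable change.

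Dhcr7, which reduces the last double bond on one branch of the path, read 432 and 62.0 units in fed and fasted wild-type and 484 and 88.3 units in fed and fasted null liver. The fall was 6.97-fold in wild-type and 5.49-fold in null liver. The fasted null pool was above the fasted wild-type pool by 0.51 on the log2 scale, under the threshold as deposited and past it with quantile normalization (0.61) or centring (0.66).

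**Figure D2:**
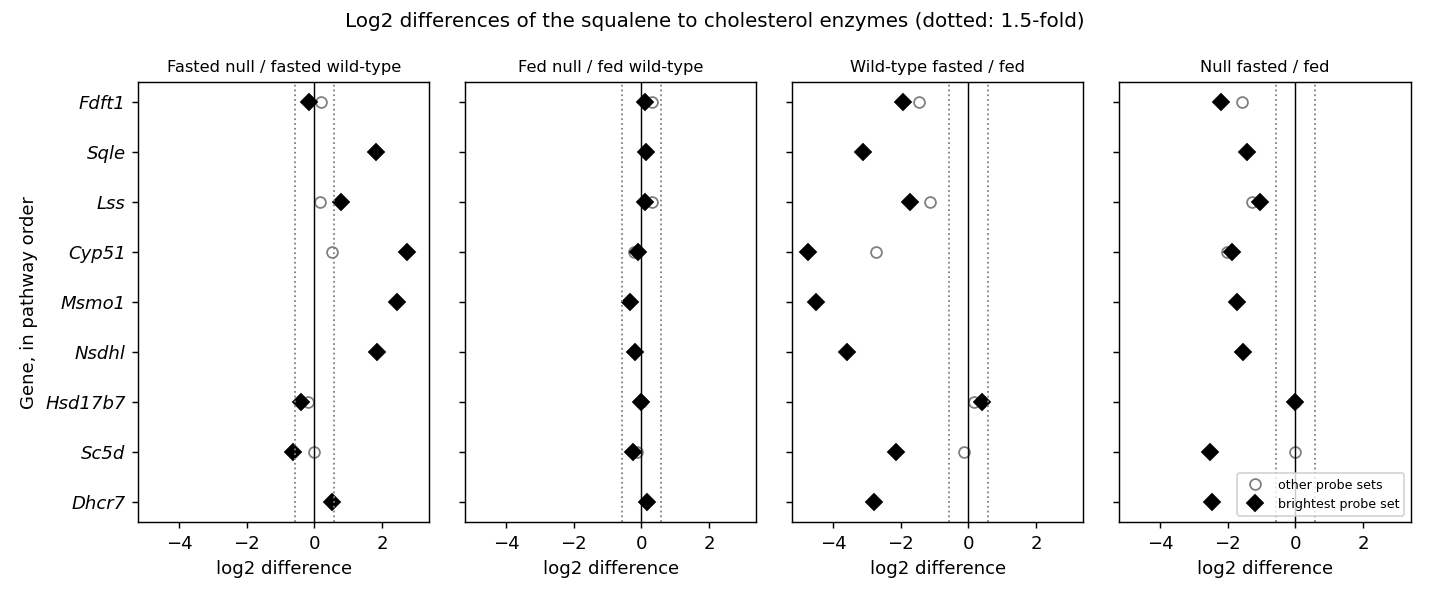
Log2 difference of each gene in the 4 comparisons, with the brightest probe set as a filled diamond and other probe sets that were above the floor on at least 1 array as open circles (dotted lines mark 1.5-fold). The fed comparison stays inside the dotted lines for all 9 genes, while the fasted comparison reaches 2.75 for Cyp51 and -0.62 for Sc5d. Values are bounded by the floor of 16 units for Sqle in wild-type liver and for Hsd17b7 throughout.

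The fasted comparison of genotypes set the fasted null pool against the fasted wild-type pool, which also differ in substrain. Of the 9 genes, 5 were called higher in the fasted null pool (Sqle, Lss, Cyp51, Msmo1 and Nsdhl) against 8.58% of all measured genes, and 1 (Sc5d) was called lower against 13.6%. The median log2 difference was 0.79, beside -0.01 for all measured genes. Cyp51, Msmo1, Nsdhl and Sqle stood at places 25, 34, 79 and 84 from the highest difference among 6947 genes, and Lss at place 364. These counts lean on dim values in the fasted wild-type pool. With a floor at 64 units the number higher was 2 and the median 0.37, since Sqle (0.00), Lss (0.27) and Nsdhl (0.56) were then under the threshold.

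Scaling matters for this comparison. Centring each array on its bright probe sets moved the median of all genes by 0.11 on the log2 scale, and the share of lower genes among all called genes went from 61.4% to 44.9%. With that centring 6 of the 9 genes were higher against 12.6% of all genes, 0 were lower against 10.2%, and the median of the set was 0.94, or 0.83 relative to the shift of all genes. For fasting in null liver the share of lower genes among those called went from 59.1% to 47.6%, while 8 of the 9 genes were lower under both scalings.

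In the fed state no gene of the set was called in either direction, with 0 of 9 higher and 0 of 9 lower against 2.38% and 2.12% of all measured genes. The log2 differences of the fed null pool from the fed wild-type pool ran from -0.32 for Msmo1 to 0.16 for Dhcr7, with a median of 0. This median is the value of Hsd17b7, which was below the floor in both fed pools, and without a floor the median was -0.11. Cyp51, Msmo1, Nsdhl and Sqle, which differed most between the fasted pools, were thus within 1.5-fold between the fed pools.

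The fasting responses of the genotypes, which share no array, can be compared gene by gene. Fasting lowered Cyp51 by 2.85 log2 units less in null than in wild-type liver, Msmo1 by 2.77, Nsdhl by 2.04, Sqle by 1.67, Lss by 0.69 and Dhcr7 by 0.35 units less. The direction for Lss turned in its dimmer probe set, with changes of -1.14 in wild-type and -1.28 in null liver. The null response was the stronger one for Fdft1 (-0.26) and Sc5d (-0.38), and Hsd17b7 (-0.40) was set by the floor. A response at least 1 log2 unit higher in null than in wild-type liver was seen for 4 of the 9 genes and for 3.48% of all measured genes. This count depends on the probe set and the floor. For Cyp51 a dimmer probe set changed by -2.73 in wild-type and -2.01 in null liver, a gap under 1 unit. With a floor at 64 units Nsdhl changed by -2.29 and -1.54 and Sqle by -1.10 and -1.25 in wild-type and null liver, so neither gap reached 1 unit. The 4 genes form no unbroken stretch of the path, since Lss lies between Sqle and Cyp51, and the value for Sqle rests on a floored array.

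**Figure D3:**
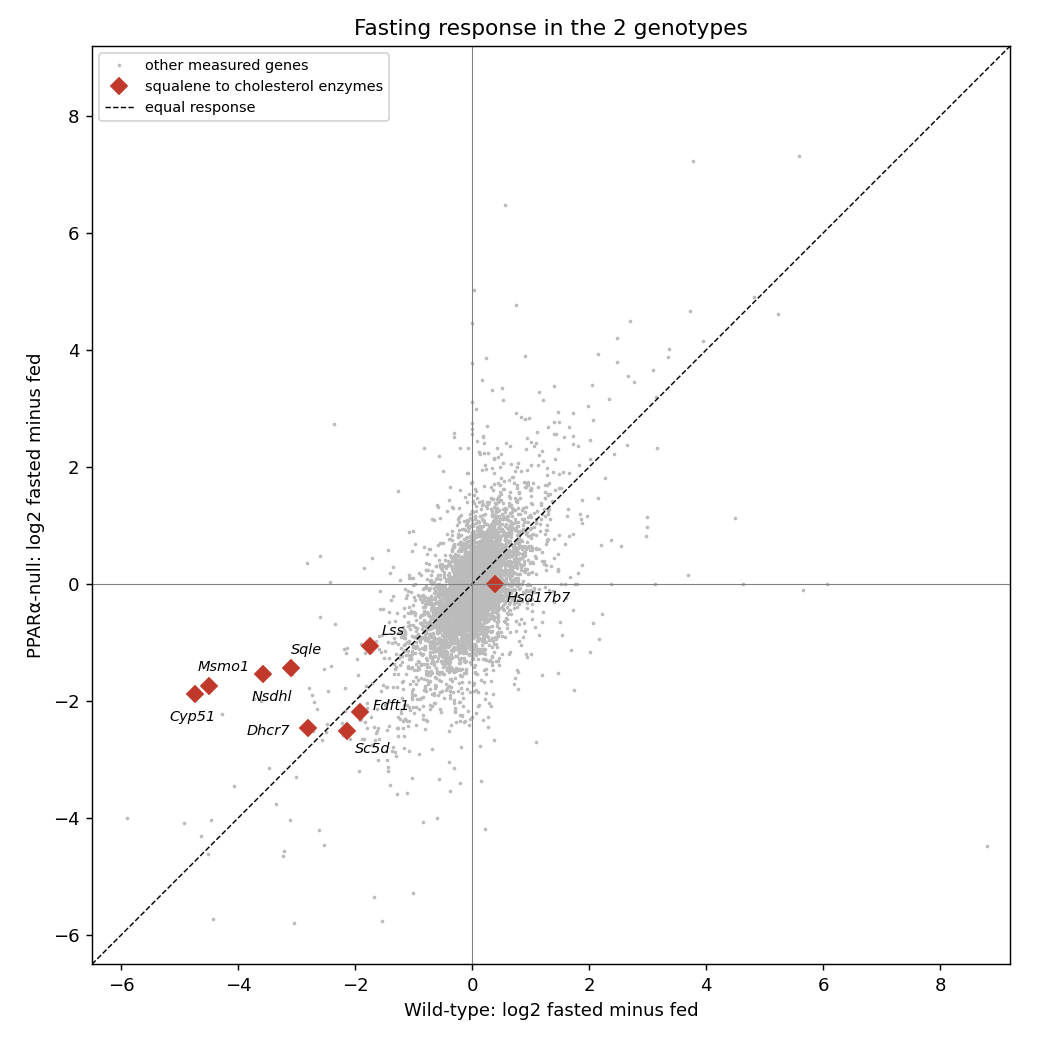
Log2 change on fasting in wild-type (x axis) and PPARα-null liver (y axis) for all 6947 measured genes, 1 pooled array per group, with the 9 enzyme genes as red diamonds. Fdft1, Sc5d and Dhcr7 lie near the dashed line of equal response, whereas Cyp51, Msmo1, Nsdhl and Sqle lie above it at wild-type changes between -4.74 and -3.10.

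Some markers of other cells differed between the fasted pools, where 8.58% of all measured genes were higher and 13.6% lower in null liver. Of 9 measured Kupffer cell and macrophage markers, 8 were higher and 0 lower in the fasted null pool, with a median log2 difference of 0.98, and their summed level was 833 and 498 units in fed and fasted wild-type and 854 and 1101 units in fed and fasted null liver. Clec4f, which defines Kupffer cells, read 60.3, 40.4, 73.6 and 81.8 units in that order, and Cd68 was below the floor on all arrays. Of 6 measured stellate cell and fibroblast markers, 4 were higher and 0 lower in the fasted null pool, with a median of 0.64. Between the fed pools 3 of these 6 were already higher and 0 lower in null liver, with a median of 0.60, against 2.38% of all measured genes higher. Their summed levels were 1504 and 1508 units in fed and fasted wild-type and 2012 and 2729 units in fed and fasted null liver. Col1a1 and Des were below the floor throughout. Of 7 measured endothelial markers 2 were higher (Stab2 and Lyve1) and 2 lower (Clec4g at -1.02 and Stab1 at -0.61), with a median of 0.11, and Pecam1 was below the floor throughout. Their summed level was 585 and 504 units in fed and fasted wild-type and 552 and 796 units in fed and fasted null liver. The cholangiocyte marker Sox9 was 1.63-fold higher, and Ptprc of the lymphocyte list was at -0.19 on the log2 scale. Among 7 measured hepatocyte markers 1 was higher (Tat), and their median was 0.09. The part of these markers in the sterol gene differences was not tested.

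The neighbouring steps of the path gave a frame for the set. Of the other enzymes between squalene and cholesterol, 4 were measured. In wild-type liver 3 of the 4 were lower after fasting, against 8.29% of all measured genes, and in null liver 2, against 18.0%. Lbr and Tm7sf2 both encode sterol reductases that act just after Cyp51. Lbr read 128 and 35.6 units in fed and fasted wild-type liver and 102 and 122 units in fed and fasted null liver, so it was 3.59-fold lower after fasting in wild-type liver, at 0.27 on the log2 scale after fasting in null liver, and 3.44-fold higher in the fasted null than in the fasted wild-type pool. Tm7sf2 read 1001 and 506 units in wild-type and 909 and 644 units in null liver, with log2 changes of -0.98 and -0.50. Ebp, the isomerase before Sc5d, read 2148 and 1539 units in wild-type and 2283 and 1488 units in null liver, changes of -0.48 and -0.62 on the log2 scale. Erg28 read 44.6 and 29.3 units in wild-type and 45.7 and 15.0 units in null liver, so the fasted null pool was below the floor and at least 1.83-fold lower than the fasted wild-type pool.

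Upstream of squalene, 7 of 9 listed genes of the mevalonate steps were measured. In wild-type liver 5 of 7 were lower after fasting and in null liver 4, with medians of -1.87 and -1.77. The shares of all measured genes that were lower were 8.29% and 18.0%. Fdps, which makes farnesyl diphosphate, read 1092 and 18.4 units in wild-type and 1099 and 68.4 units in null liver, a 59.5-fold and a 16.1-fold fall. Its fasted wild-type value is close to the floor of 16 units. The sizes of its wild-type fall and of its gap between the fasted pools are therefore uncertain. Idi1, the isomerase before it, fell 24.9-fold and 19.9-fold in its brightest probe set. Pmvk, a kinase of the mevalonate steps, read 81.6 and 22.4 units in wild-type and 83.2 and 18.2 units in null liver. Between the fasted pools 2 of 7 genes were higher in null liver (Fdps and Hmgcs1) and 0 were lower, with a median of 0.29. The shares over all measured genes were 8.58% higher and 13.6% lower. Idi1 was at 0.45 on the log2 scale in that probe set and at 1.57 in another. Hmgcs1, a synthase of the mevalonate steps, was at 0.96 with its remaining probe sets between 0.28 and 1.01.

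**Figure D4:**
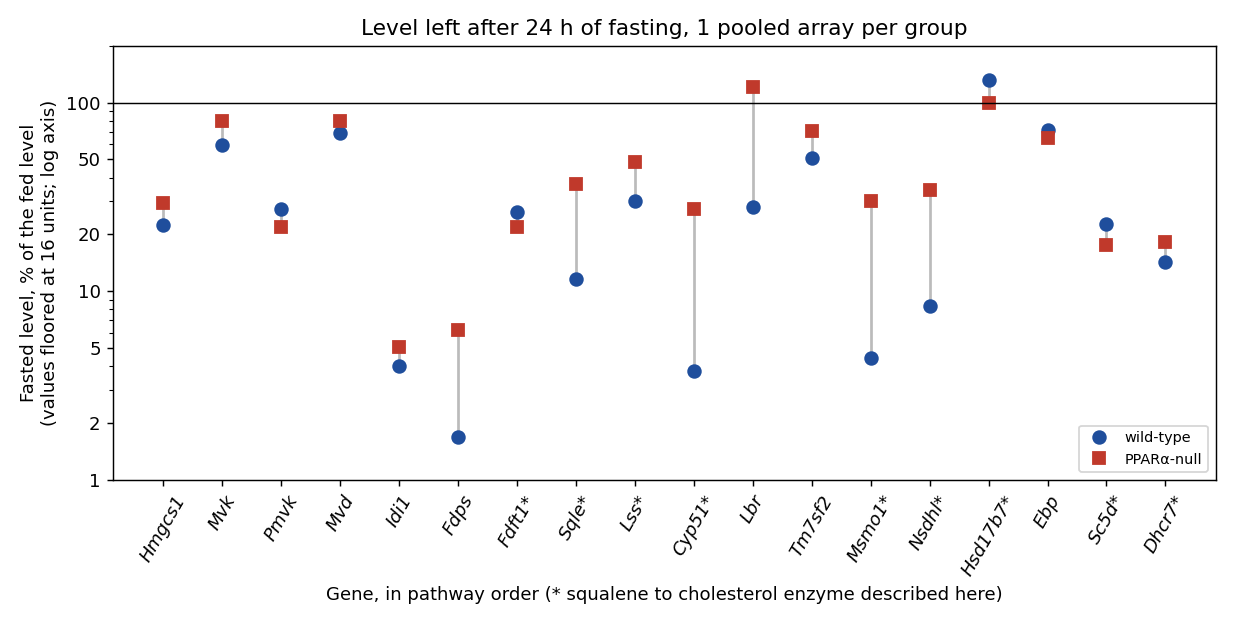
Fasted level as a percentage of the fed level (log axis) for genes of the path in order, in wild-type (circles) and PPARα-null liver (squares), from values floored at 16 units and 1 pooled array per group. Grey lines join the genotypes. The gap is widest for Cyp51 (3.75% against 27.1%), Msmo1 (4.41% against 30.0%), Lbr, Nsdhl and Fdps, and small for Fdft1, Ebp, Sc5d and Dhcr7.

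Genes that sense sterol or take it up did not move as one. Of 13 listed genes 9 were measured. In either genotype 3 were higher and 2 lower after fasting. The shares of all measured genes were 8.20% higher and 8.29% lower in wild-type and 12.4% higher and 18.0% lower in null liver. Srebf2, the gene of SREBP-2, was near the floor on all arrays, between 16.5 and 19.8 units. Srebf1, which encodes the related regulator of fatty acid synthesis, read 387 and 16.9 units in fed and fasted wild-type and 394 and 12.2 units in fed and fasted null liver, a 22.9-fold fall in wild-type and one of at least 24.6-fold in null liver, where the fasted pool was below the floor. Insig2, whose product holds the SREBP precursor in the endoplasmic reticulum, read 2561 and 4738 units in fed and fasted wild-type and 3240 and 6752 units in fed and fasted null liver, a rise in both. Stard4, which carries cholesterol between membranes, had a fall in both, from 921 to 139 units in wild-type and from 590 to 159 units in null liver. Scap, the escort of the SREBP precursor, stayed between 747 and 1015 units on all arrays. Between the fasted pools 0 of the 9 genes were higher in null liver, against 8.58% of all measured genes, and 1 was lower, against 13.6%. Both counts are near these shares. The lower gene was the lysosomal cholesterol transporter gene Npc1, at -0.99. In the fed pools Npc1 was already at -0.92.

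The genes with a pattern most like the set were found by distance. For each of 3800 other genes with 64 units or more on at least 1 array, the log2 values on the 4 arrays were centred on their mean and the Euclidean distance to the mean pattern of the 9 genes was taken, where the median distance was 2.32. That mean includes Hsd17b7, whose centred values ran only from -0.10 to 0.30, which makes the mean pattern shallower. The nearest were Rdh11 (0.22), Cyp4f14 (0.41), Hmgcs1 (0.47), Nat8f1 (0.49), Jun (0.54), Cnp (0.56), Gstm6 (0.59) and Slc41a2 (0.63). Rdh11, a retinol dehydrogenase gene, read 273 and 39.7 units in fed and fasted wild-type and 237 and 68.8 units in fed and fasted null liver. The distances of the enzyme genes themselves from their mean pattern lay between 0.60 for Sqle and Dhcr7 and 1.69 for Cyp51 among the 8 that reached 64 units. Distances over 4 arrays are a description and carry no test.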

How the data were processed

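Total liver RNA was pooled within each group and hybridized to Affymetrix MOE430A arrays. The deposited table holds linear intensities from GCRMA, run by the authors (the submitters' processing notes name version 2.20), which corrects background by probe sequence, normalizes quantiles and summarizes probes. No source used here says which arrays were normalized as a set, and the number of arrays limits the precision. Tissue of both feeding states was taken at the same time of day, after the night. The sources differ on the number of mice in a pool (the series' design text is used here) and on the substrain name.

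Of 22690 probe sets, 64 are controls, 20393 name 1 gene, 691 several and 1606 none in the platform annotation. Symbols were checked through gene identifiers (20364 matched, 0 updated). Values were converted to log2 and floored at 16 units. A gene was represented by its probe set of highest mean log2 intensity, and a gene was measured if above the floor on at least 1 array (6947 genes). A fold against a floored array is a bound, written as at least. All 9 genes, up to 4 genes of each pathway list by their difference between the fasted arrays, further list genes chosen after their values were seen, the 8 nearest patterns and Ppara were named. The genes and lists were chosen with earlier results of these data known. Alternatives were a 2-fold threshold, other floors, a filter at 64 units, quantile normalization, centring on bright probe sets, lowess (fraction 0.3) and other ways to reduce probe sets to genes. Known changes planted in simulated arrays were used to test the procedure. Python 3.11.15, numpy 2.4.6, pandas 2.3.3 and statsmodels 0.14.6 were used.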

Additional observations from a re-analysis of the deposited data

Results flagged for a closer look

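Among the genes described, Cyp7a1, which encodes the first and rate-setting enzyme that turns cholesterol into bile acids, changed past the threshold in opposite directions on fasting. It read 197 and 654 units in fed and fasted wild-type liver and 155 and 44.1 units in fed and fasted null liver. Its log2 change was 1.73 in wild-type and -1.82 in null liver, a difference of -3.55. The difference was not tested, since each state has 1 array, and a second probe set showed the same directions, with 2.46 and -2.20.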

How the results depend on the processing

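No paired analysis was possible because each group has 1 array. In null and wild-type liver 8 genes were lower under each alternative that kept all 9 or the 8 brighter genes, 7 of 8 without suffixed probe sets, and 11 of 14 when each probe set was counted. With a filter at 64 units the background was 12.7% lower in wild-type and 25.1% in null liver. The fed comparison had 0 called genes under all 10 alternatives. The fasted comparison of genotypes depended on the processing. The number of genes higher in the fasted null pool was 2 with a floor at 64 units, where Sqle, Lss and Nsdhl lost their call because their fasted values are dim, and 3 without suffixed probe sets, where Msmo1 has no probe set left and Lss was at 0.16. The number lower was 0 with a 2-fold threshold, quantile normalization, centring and the mean of all probe sets. The median of that comparison was 0.37 with the higher floor, 1.30 with the filter, 0.51 with the mean of probe sets, 0.35 without suffixed probe sets and 0.35 over single probe sets. The wild-type fasting median was -2.21 with the higher floor, -2.47 without suffixed probe sets and -2.03 over single probe sets, and the null fasting median was -1.44 with the mean of probe sets. Of 312 values of single genes under the alternatives, 300 kept their side of the threshold, 10 fell under it, 2 passed it and 0 reversed. All values that changed side belong to the fasted comparison of genotypes, so the pooled count overstates how stable that comparison is. The filter at 64 units also repeats the main values of the genes it keeps. Values under about 64 units sit close to the background of these arrays, and 1 array per group leaves the error unknown.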

Other observations

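Genes of bile acid synthesis and sterol efflux were in part lower in the fasted null pool. Of 7 measured genes (Cyp7a1, Cyp27a1 and Cyp8b1 of bile acid synthesis, the sterol transporters Abca1, Abcg5 and Abcg8, and the oxysterol receptor Nr1h3), 4 were lower against 13.6% of all measured genes and 0 higher against 8.58% in the fasted null than in the fasted wild-type pool, with a median log2 difference of -0.79 against -0.01 for all measured genes. The canalicular sterol transporter genes Abcg5 and Abcg8 were 3.04-fold and 3.72-fold lower there. In the fed pools they were already 3.55-fold and 1.87-fold lower. Cyp8b1, which sets the share of cholic acid, was at 3494 units in the fasted wild-type pool and at 2027 units in the fasted null pool.

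Several of the enzymes above draw electrons from microsomal carriers. Cyb5a, the main microsomal cytochrome b5 gene, read between 6939 and 7875 units on the 4 arrays and was within 1.5-fold in all 4 comparisons. Cyb5r3, the cytochrome b5 reductase gene, read 3068 and 1991 units in fed and fasted wild-type liver. In fed and fasted null liver it read 2940 and 2350 units. It was thus 1.54-fold lower after fasting in wild-type liver and at -0.32 on the log2 scale in null liver. Another probe set of Cyb5r3 had log2 changes on fasting of -0.67 in wild-type and -0.63 in null liver. A further probe set had changes of -0.81 in wild-type and -0.83 in null liver. These values were past the threshold in both genotypes, so the Cyb5r3 difference between genotypes depends on the probe set. The remaining probe set was below the floor on all arrays. Cyb5b, which encodes the outer mitochondrial form, read 1652 and 442 units in fed and fasted wild-type and 1560 and 314 units in fed and fasted null liver, with log2 changes on fasting of -1.90 and -2.31. Its other 2 probe sets had changes from -2.63 to -2.10 in wild-type and from -3.28 to -2.68 in null liver.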
